A study of Mus musculus with 3 samples.

Results

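Astroglial genes were examined in 3 sorted cell populations of the mouse: Sparcl1, Slc1a2, Aldh1l1, Gfap, Aqp4, S100b, Apoe, Clu and Gja1. These 9 genes were taken from 20145 genes that could be named on the arrays, through every mouse probe whose accession is a RefSeq transcript of 1 of them, which gave 14 probes. The set was drawn up around Sparcl1, which was selected on its measured values in these data, since it is among the genes lowest in MGE-GFP+ cells relative to ES-Lhx6-GFP+ cells. That difference of Sparcl1 is therefore given as a description only. So is its difference between MGE-GFP+ and GFP- ES-derived cells, which uses the same MGE-GFP+ value.

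Each population was measured on 1 one-color array. The ES-derived cells, named ES-Lhx6-GFP+ or ES-Lhx6-GFP- by the sort and written below as GFP+ ES-derived and GFP- ES-derived cells, were isolated by FACS from J14 mouse ES cells of the 129S4/SvJae strain, male, that carry an Lhx6-GFP BAC transgene and a 692-mCherry enhancer-reporter viral gene, and that had been aggregated and taken to day 12 of the MGE differentiation protocol with 100 ng/ml Dkk-1 and 6 nM SAG, an agonist of Sonic hedgehog signaling. MGE-GFP+ cells were sorted from the medial ganglionic eminence (MGE) of embryonic day 12.5 brains of CD1 mice, labeled female, that carry an Lhx6-GFP BAC, with no culture and no added agent. GFP in all 3 populations reports the activity of the Lhx6 BAC and not the astroglial genes. The ES-derived cells come from 1 line, so strain, sex, culture and origin change together between the MGE and the ES-derived arrays and cannot be told apart. With 1 array per population there is no spread between replicates, no test and no p-value, so the precision of every value below is limited by the number of arrays. The 3 comparisons share arrays with each other and are not independent.

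Astrocytes are the glia that supply and regulate neurons. They take up glutamate released at synapses, buffer water and potassium, couple to each other through gap junctions, and secrete lipoproteins and matricellular proteins that act on synapses. They arise late in brain development from radial glia, the progenitors that first make neurons, and several astrocyte genes, such as those for glutamate transporters and lipid carriers, are already transcribed in radial glia. Interneurons that leave the MGE express Lhx6 after their last division.

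The sort was checked with Lhx6 and with Gad1 and Gad2, the enzymes that make GABA. Lhx6, as the mean of its 3 probes, was 2.63 higher on the log2 scale in GFP+ ES-derived than in GFP- ES-derived cells, Gad1 2.13 higher and Gad2 1.71 higher. Relative to GFP- ES-derived cells, the same genes in MGE-GFP+ cells were 3.41, 1.90 and 1.93 higher. One Lhx6 probe was about as bright on all arrays, at intensities of 111947, 122188 and 97733 in GFP+ ES-derived, GFP- ES-derived and MGE-GFP+ cells, whereas the other two were between 399 and 1373 in GFP- ES-derived cells and between 5818 and 25391 in the sorted GFP+ populations.

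Intensities are given as deposited, after background subtraction, in arbitrary units that are comparable for 1 probe across arrays only after scaling. For differences, log2 intensity was taken relative to the 75th percentile of all mouse probes of the array, which was 747 for GFP+ ES-derived, 843 for GFP- ES-derived and 576 for MGE-GFP+ cells. The repeat spots of a probe on 1 array varied with an SD of 0.139 to 0.144 on the log2 scale, so that a difference between 2 arrays larger than 0.40 (1.32-fold) exceeded 2 SDs of a difference. This spread covers printing and reading only, and not cultures, embryos, sorts or amplifications. Signal with no mouse transcript behind it was gauged with 106 control probes against adenovirus E1A and ERCC sequences, whose 95th percentile was 378, 212 and 153 on the GFP+ ES-derived, GFP- ES-derived and MGE-GFP+ arrays. The GFP+ ES-derived array stood apart in this respect, with 86 of the 106 control probes well above background by the scanner software's call, against 34 on each of the other arrays, and with 90.6% of mouse probes well above background against 80.3% and 77.1%. The dimmest intensity called well above background was 24.0 on that array, 17.8 on the GFP- ES-derived and 12.1 on the MGE-GFP+ array. The part of this in the differences below was not tested beyond the alternatives given with them.

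Of the 14 probes of the astroglial genes, 9 were brightest in GFP- ES-derived cells by normalized level, and the others were those of Slc1a2 and 2 of the 3 of Gfap, each brightest in a GFP+ population. By gene, 6 of the 9 were at least 2-fold lower in GFP+ ES-derived than in GFP- ES-derived cells (Sparcl1, Aldh1l1, Aqp4, S100b, Apoe and Gja1) and 0 were at least 2-fold higher. Among all 18655 genes with a value in that comparison, 6.4% were at least 2-fold lower and 24% at least 2-fold higher. In MGE-GFP+ relative to GFP- ES-derived cells, 7 of the 9 were at least 2-fold lower (Sparcl1, Aldh1l1, Aqp4, S100b, Apoe, Clu and Gja1) and 0 higher, where 17.2% of 17025 genes were lower and 9.9% higher. Sparcl1 enters that count with the MGE-GFP+ value on which it was selected. Gja1 was well above background in GFP- ES-derived cells only, so in both counts against those cells it could count only as lower. Aqp4 enters the first count with probes that disagreed, at -3.65 and -0.01. With the floor at the control 95th percentile these counts became 4 of 7 and 6 of 7 genes. In MGE-GFP+ relative to GFP+ ES-derived cells, 6 of the 8 genes with a value were at least 2-fold lower (Sparcl1, Aldh1l1, Gfap, Aqp4, Apoe and Clu) and 0 higher. This last comparison selected Sparcl1, and 32.2% of all 18580 genes were lower in it and 5.48% higher, so nothing is read from the count.

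Over the 9 genes the median log2 difference was -1.83 for GFP+ ES-derived minus GFP- ES-derived, where the median of all genes was 0.27. It was -2.98 for MGE-GFP+ minus GFP- ES-derived, beside -0.06 for all genes, and -1.43 for MGE-GFP+ minus GFP+ ES-derived over the 8 genes with a value, beside -0.36. Over the alternatives these 3 medians ranged from -2.27 to -0.92, from -3.17 to -2.07 and from -1.65 to -0.67. The medians that involve MGE-GFP+ cells include Sparcl1 with the value on which it was selected, and are descriptions only. The scaling sets how all genes split: of the genes at least 2-fold different between the ES-derived populations, 21.1% were lower in GFP+ cells with the 75th percentile, 47.9% with the 50th, 56.5% after quantile normalization and 51.3% in the normalized log2 values that the authors deposited. For MGE-GFP+ against GFP+ ES-derived the corresponding shares were 85.4%, 39.7%, 48.4% and 58.5%, and for MGE-GFP+ against GFP- ES-derived 63.5%, 41.3%, 55.1% and 58.6%. Under the 50th percentile the median of all genes moved to -0.18, 0.40 and 0.25 for the ES-derived pair, MGE-GFP+ minus GFP+ ES-derived and MGE-GFP+ minus GFP- ES-derived. In bulk sorted cells, fewer cells of a type and less RNA per cell of that type cannot be told apart.

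**Figure D1:**
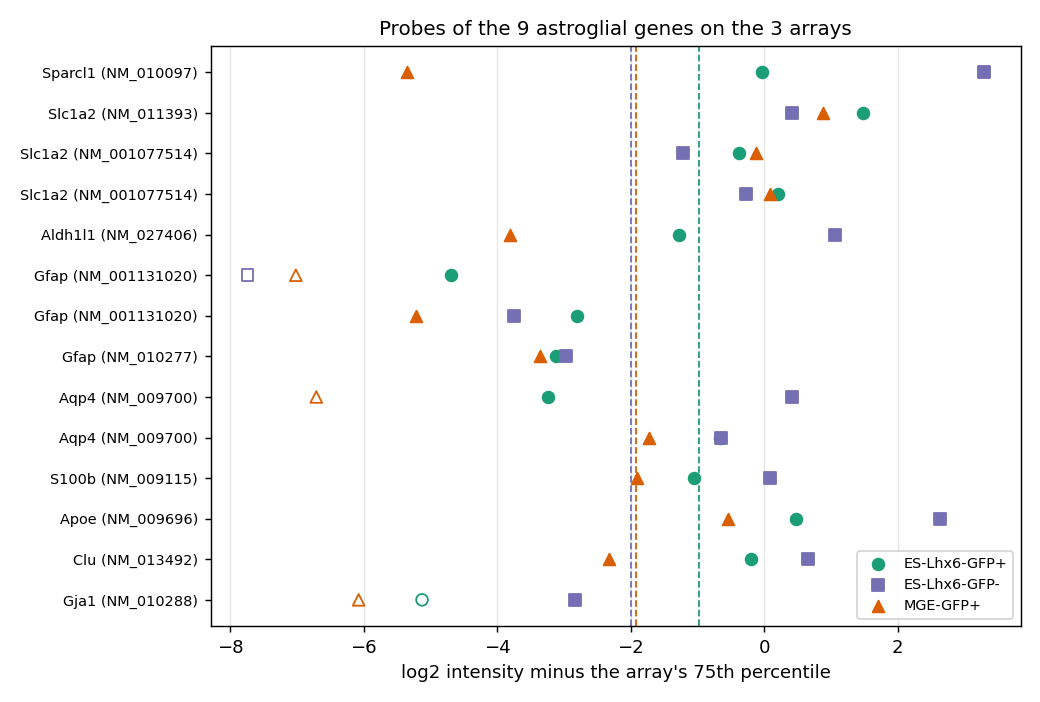
Normalized log2 intensity of the 14 probes of the 9 astroglial genes (1 row per probe, named by gene and transcript) on the 3 arrays, as log2 intensity minus the array's 75th percentile. Filled marks are well above background and open marks are not. Dashed lines are the 95th percentile of the control probes on each array in that array's color. Squares (ES-Lhx6-GFP-) lie farthest right for 9 probes and triangles (MGE-GFP+) farthest left for 10.

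**Figure D2:**
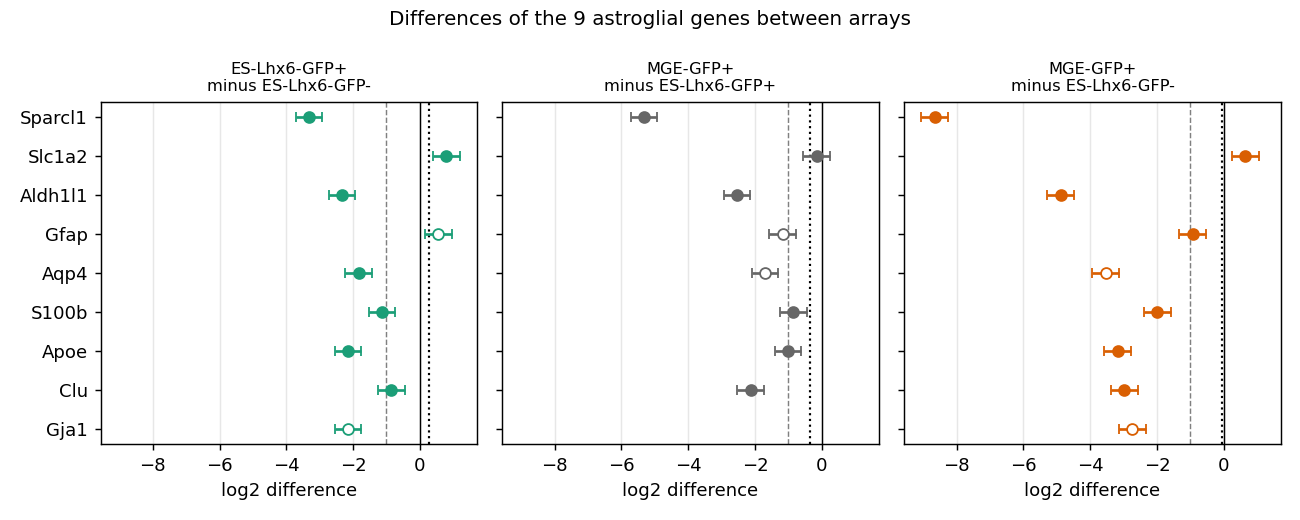
Log2 difference of each astroglial gene in the 3 comparisons, 1 array against 1 array. Bars are 2 SDs of a difference between repeat spots and not between replicates, open marks rest on a bound because a probe was not well above background on 1 of the arrays, the dashed line marks 2-fold lower and the dotted line the median of all genes. Sparcl1 is farthest left in each panel, and Slc1a2 lies right of zero in the outer panels.

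Of the 14 probes, 13 were well above background in GFP+ ES-derived, 13 in GFP- ES-derived and 11 in MGE-GFP+ cells. Above the 95th percentile of the control probes were 7, 10 and 6. By gene, 5 of 9 exceeded it with at least 1 probe in GFP+ ES-derived cells, 7 in GFP- ES-derived cells (all but Gfap and Gja1) and 4 in MGE-GFP+ cells (Slc1a2, Aqp4 with 1 of 2 probes, S100b and Apoe). Gfap, the intermediate filament by which mature astrocytes are usually identified, and Gja1, the main astrocyte connexin, were within the control range on every array. The astroglial label of the set therefore rests here on genes other than Gfap and Gja1. Several of these, such as glutamate transporters and lipid carriers, are also transcribed in radial glia or other cells. Whether astrocytes were present was not tested.

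Sparcl1 (hevin) is a secreted matricellular glycoprotein of the SPARC family that astrocytes release at forming synapses, and it is also made by radial glia and by cells of the vessel wall. Its 1 probe (NM_010097) had an intensity of 727 in GFP+ ES-derived, 8233 in GFP- ES-derived and 14.0 in MGE-GFP+ cells. Both ES-derived arrays were above the control range. The MGE value was within it, brighter than 68.9% of the control probes and little above the dimmest intensity called well above background on that array, 12.1. Sparcl1 was 10.0-fold lower in GFP+ ES-derived than in GFP- ES-derived cells (-3.33 on the log2 scale), and 31 of 18655 genes had a lower difference. In MGE-GFP+ cells it was 401-fold lower than in GFP- ES-derived cells (-8.65), with 2 of 17025 genes lower, and 40.0-fold lower than in GFP+ ES-derived cells (-5.32), with 12 of 18580 genes lower. Both differences use the MGE-GFP+ value on which Sparcl1 was selected, so they and their ranks are descriptions only. The sizes against MGE-GFP+ cells depend on how dim signal is treated. With the MGE value raised to the 95th percentile of the control probes, which makes the difference a bound, it was -5.20 and -1.88, and in the deposited log2 values -6.37 and -3.02, while the difference between the ES-derived populations lay between -3.77 and -3.32 under 9 alternatives. Sparcl1 was at least 2-fold lower in each comparison under each of these 9.

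Aldh1l1 is an enzyme of folate metabolism (10-formyltetrahydrofolate dehydrogenase) used as a marker of the whole astrocyte lineage. Its 1 probe (NM_027406) read 308 in GFP+ ES-derived, 1755 in GFP- ES-derived and 40.9 in MGE-GFP+ cells, and only the GFP- ES-derived value was above the control range. It was 5.05-fold lower in GFP+ ES-derived than in GFP- ES-derived cells (-2.34), 29.3-fold lower in MGE-GFP+ than in GFP- ES-derived cells (-4.87) and 5.80-fold lower in MGE-GFP+ than in GFP+ ES-derived cells (-2.54). Over the alternatives these differences ranged from -2.78 to -1.95, from -4.87 to -2.97 and from -2.54 to -1.32.

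The lipid carriers followed. Apoe, the lipoprotein by which astrocytes deliver cholesterol to neurons, was printed as 10 spots of 1 probe (NM_009696). The spots read 947 to 1135 (median 1031) in GFP+ ES-derived, 4718 to 5592 (median 5269) in GFP- ES-derived and 357 to 440 (median 396) in MGE-GFP+ cells. The spots of the 3 arrays did not overlap, and all were above the control range. Apoe was 4.45-fold lower in GFP+ ES-derived than in GFP- ES-derived cells (-2.16), and differed by -3.17 between MGE-GFP+ and GFP- ES-derived cells. It was 2.02-fold lower in MGE-GFP+ than in GFP+ ES-derived cells (-1.01). The last of these moved with the scaling, to -0.27 under the 50th percentile. Clu (clusterin), a secreted chaperone that also carries lipid, read 651, 1328 and 115 in GFP+ ES-derived, GFP- ES-derived and MGE-GFP+ cells (NM_013492). It differed less between the ES-derived populations (-0.85, 1.80-fold lower in GFP+ cells) and more against MGE-GFP+ cells, where it was 7.88-fold lower than in GFP- ES-derived (-2.98) and 4.36-fold lower than in GFP+ ES-derived cells (-2.13), with the MGE value inside the control range.

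**Figure D3:**
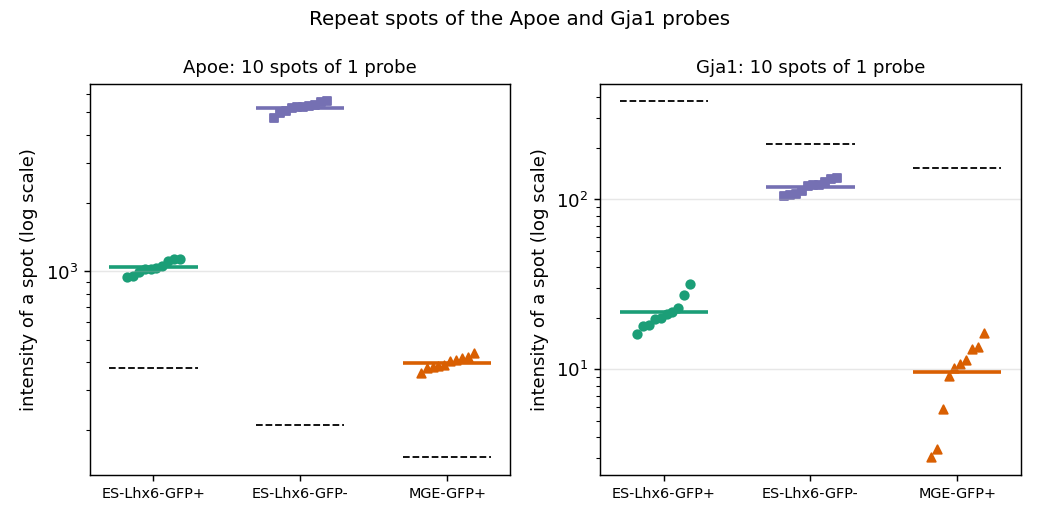
Intensity of each of the 10 spots of the Apoe probe and of the Gja1 probe on the 3 arrays (log axis), with the mean of the spots as a solid bar and the 95th percentile of the control probes of that array as a dashed line. The spots are repeat prints on 1 array and not replicate samples. Apoe spots lie above the line on all arrays, between 357 and 5592, and Gja1 spots lie below it on all arrays, between 3.05 and 134.

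Gja1 encodes connexin 43, the gap junction protein of astrocytes and also of radial glia. Its 10 spots (NM_010288) read 16.1 to 32.0 in GFP+ ES-derived, 105 to 134 in GFP- ES-derived and 3.05 to 16.3 in MGE-GFP+ cells. It was well above background in GFP- ES-derived cells only, with no overlap between those spots and the other two arrays. Set against the lowest detected level, it was at least 4.46-fold lower in GFP+ ES-derived and at least 6.69-fold lower in MGE-GFP+ than in GFP- ES-derived cells. These sizes rest on the 75th percentile scaling and its floor. Over the alternatives the differences ranged from -3.92 to -0.92 and from -3.24 to -0.81, the smallest of each under normexp, where Gja1 was no longer 2-fold lower, and in the deposited log2 values it was 2.86-fold and 2.12-fold lower. No fold was given between the GFP+ populations, in which it was not well above background. Every Gja1 value was within the control range, including that in GFP- ES-derived cells.

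S100b is a calcium-binding protein of astrocytes and of some oligodendrocyte lineage cells. Its probe (NM_009115) read 361, 896 and 154 in GFP+ ES-derived, GFP- ES-derived and MGE-GFP+ cells. It was 2.20-fold lower in GFP+ ES-derived than in GFP- ES-derived cells (-1.14) and 3.97-fold lower in MGE-GFP+ than in GFP- ES-derived cells (-1.99). Between MGE-GFP+ and GFP+ ES-derived cells the difference was -0.85, and from -0.85 to -0.10 over the alternatives.

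Aqp4, the water channel of astrocyte endfeet, had 2 probes to the same transcript (NM_009700) that disagreed. The first read 79.0, 1119 and 5.49 in GFP+ ES-derived, GFP- ES-derived and MGE-GFP+ cells and was not well above background in MGE-GFP+ cells. The second read 470, 535 and 173. By the first probe Aqp4 differed by -3.65 between GFP+ ES-derived and GFP- ES-derived cells, and by the second by -0.01. Against MGE-GFP+ cells the first gave bounds of -5.98 relative to GFP- ES-derived and -2.34 relative to GFP+ ES-derived cells, and the second -1.08 and -1.06. Both probes were thus lowest in MGE-GFP+ cells, and the mean of both, -1.83 between the ES-derived populations, rests on the first. Which probe follows the Aqp4 transcript was not tested.

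Gfap had 3 probes, all within the control range on every array. The probe to NM_010277 read 85.7, 107.5 and 56.2 in GFP+ ES-derived, GFP- ES-derived and MGE-GFP+ cells. The probes to NM_001131020 read 106, 62.5 and 15.5, and 28.7, 3.93 and 4.44, the last of which was well above background in GFP+ ES-derived cells only. The mean difference between GFP+ ES-derived and GFP- ES-derived cells was 0.55 and became -0.61 after quantile normalization, -0.19 in the deposited log2 values and -0.15 with the brightest probe alone. In MGE-GFP+ relative to GFP+ ES-derived cells it was -1.17 and became 0.17 after quantile normalization and 0.26 in the deposited log2 values. No direction is given for Gfap between these arrays.

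Slc1a2 (GLT-1, EAAT2), the main glutamate transporter of the forebrain, was the gene that departed from the rest. Its 3 probes were above the control range on all arrays. The probe to NM_011393 read 2081 in GFP+ ES-derived, 1125 in GFP- ES-derived and 1061 in MGE-GFP+ cells. Those to NM_001077514 read 573, 363 and 530, and 862, 694 and 612. Each probe was higher in GFP+ ES-derived than in GFP- ES-derived cells, by 1.06, 0.83 and 0.49, and their mean of 0.79 (1.73-fold) exceeded 2 SDs of repeat spots and lay between 0.35 and 1.06 over the alternatives. Slc1a2 was also 0.64 higher in MGE-GFP+ than in GFP- ES-derived cells (1.56-fold, between 0.47 and 0.95 over the alternatives). Between MGE-GFP+ and GFP+ ES-derived cells the mean of -0.15 was within 2 SDs of repeat spots, with the probes at -0.60, 0.26 and -0.12, and turned to 0.60 under the 50th percentile. Slc1a2 was the only gene of the 9 that was higher in both GFP+ populations than in GFP- ES-derived cells under every alternative.

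**Figure D4:**
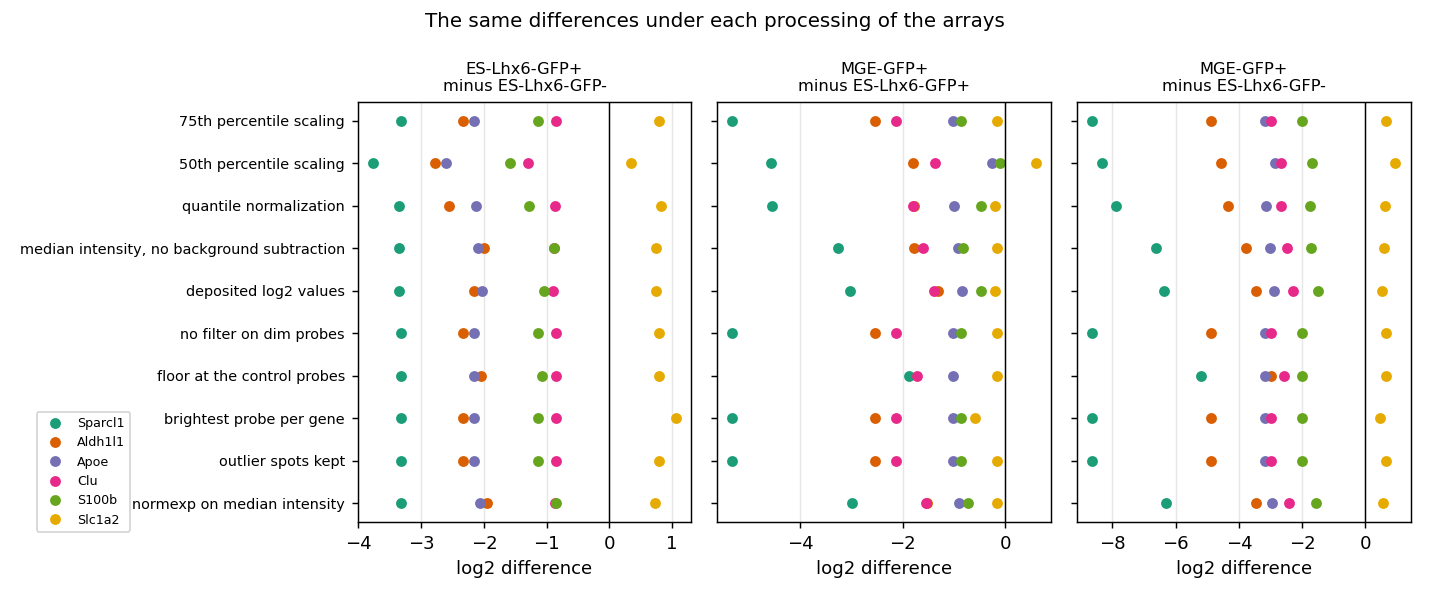
Log2 difference of 6 of the genes in the 3 comparisons (panels, each with its own axis) under the 75th percentile scaling used in the text and 9 alternatives (rows). Sparcl1 and Aldh1l1 move most against MGE-GFP+ cells, where Sparcl1 runs from -8.65 to -5.20 and from -5.32 to -1.88. Slc1a2 stays right of zero in the outer panels in every row.

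Promoter windows are shown for 5 genes, for the reader to set sequence beside expression: 3 genes that were lower together in both GFP+ populations than in GFP- ES-derived cells (Aldh1l1, S100b and Apoe), Slc1a2, which was not, and Gfap, whose promoter is the classic one of astrocytes. RefSeq windows on GRCm38.p6, each of 300 bases around the annotated start, were matched for 6 of the 9 genes. They are chr6:90550543-90550842 on the plus strand for Aldh1l1, chr10:76253586-76253885 on the plus strand for S100b, chr7:19699139-19699438 on the minus strand for Apoe (the first of 3 windows listed), chr2:102706188-102706487 on the plus strand for Slc1a2 and chr11:102897151-102897450 on the minus strand for Gfap. Capitals mark matches to motifs searched on both strands: STAT (TTCNNNGAA), one side of the NFI motif (TTGGCA), the full palindromic NFI motif, which overlaps it in TTGGC, an E box (CAGATG), SOX (ACAAAG), AP-1 (TGANTCA) and the TATA box (TATAAA).
Aldh1l1: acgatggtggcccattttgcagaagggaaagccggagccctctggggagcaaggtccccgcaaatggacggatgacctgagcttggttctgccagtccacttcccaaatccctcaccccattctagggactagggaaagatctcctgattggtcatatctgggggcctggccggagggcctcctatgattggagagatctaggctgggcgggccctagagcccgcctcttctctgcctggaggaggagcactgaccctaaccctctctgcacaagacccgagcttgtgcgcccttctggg
S100b: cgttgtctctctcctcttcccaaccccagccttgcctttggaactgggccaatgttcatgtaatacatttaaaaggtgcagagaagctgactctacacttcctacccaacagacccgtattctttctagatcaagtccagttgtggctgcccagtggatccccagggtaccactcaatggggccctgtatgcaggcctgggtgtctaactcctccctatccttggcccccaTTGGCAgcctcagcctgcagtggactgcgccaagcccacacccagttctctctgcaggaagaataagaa
Apoe: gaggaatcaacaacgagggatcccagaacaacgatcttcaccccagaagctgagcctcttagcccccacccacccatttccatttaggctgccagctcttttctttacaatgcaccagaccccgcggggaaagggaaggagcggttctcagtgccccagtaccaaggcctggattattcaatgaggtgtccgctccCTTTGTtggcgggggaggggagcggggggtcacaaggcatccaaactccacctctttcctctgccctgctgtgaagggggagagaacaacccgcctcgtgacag
Slc1a2: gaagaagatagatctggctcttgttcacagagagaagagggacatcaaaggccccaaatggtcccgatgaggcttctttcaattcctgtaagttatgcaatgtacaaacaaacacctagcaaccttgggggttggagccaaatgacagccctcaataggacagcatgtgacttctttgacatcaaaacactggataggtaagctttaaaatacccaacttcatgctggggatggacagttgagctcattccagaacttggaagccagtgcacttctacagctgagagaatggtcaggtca
Gfap: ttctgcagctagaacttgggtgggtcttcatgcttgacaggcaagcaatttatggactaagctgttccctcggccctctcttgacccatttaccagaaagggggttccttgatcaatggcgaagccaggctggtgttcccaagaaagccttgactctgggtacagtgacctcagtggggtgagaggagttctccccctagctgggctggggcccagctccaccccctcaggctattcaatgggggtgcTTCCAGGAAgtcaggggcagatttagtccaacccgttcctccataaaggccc
Aldh1l1 and Slc1a2 held none of these letters. The Gfap window held a STAT match, written with its first base at position -2 from the annotated start. S100b held the NFI letters TTGGCA at -19 and the Apoe window a SOX match on the opposite strand at -54. Of 32851 RefSeq windows of the same length, 8.30% held the STAT letters, 14.1% TTGGCA and 18.7% the SOX letters. A match is a description of letters and not a binding site. The windows also differed in composition, with 60% G and C in Aldh1l1, 57.7% in Apoe, 55.7% in Gfap, 53.7% in S100b and 45.7% in Slc1a2, where the median of all windows was 52.7%. Slc1a2 held 1 CpG dinucleotide and Aldh1l1 9, against a median of 7.

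The SPARC family, to which Sparcl1 belongs, divided. Sparc itself, a matricellular protein that modulates collagen and antagonizes Sparcl1 at synapses, followed the same order as Sparcl1 on both of its probes. They read 2407 and 10952 in GFP+ ES-derived, 7213 and 39110 in GFP- ES-derived and 82.1 and 408 in MGE-GFP+ cells. Its mean difference was -1.53 between the ES-derived populations, -5.97 for MGE-GFP+ minus GFP- ES-derived and -4.43 for MGE-GFP+ minus GFP+ ES-derived. Against MGE-GFP+ cells Sparc kept differences between -6.03 and -5.30 and between -4.43 and -3.69 over the alternatives, a narrower range than that of Sparcl1. Fstl1, a secreted member with a follistatin domain, read 750, 3224 and 257 and differed by -1.93, -3.10 and -1.17 in the same comparisons. Smoc2 read 78.7 in GFP+ ES-derived and 443 in GFP- ES-derived cells, a difference of -2.32, and was not well above background in MGE-GFP+ cells.

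The other members did not share that pattern. Smoc1 read 244, 262 and 257 and differed by 0.07 between the ES-derived populations, and by -0.37 to 0.07 under the alternatives. The testicans, proteoglycans of neurons, were not lower in GFP+ ES-derived than in GFP- ES-derived cells: the differences were 0.45 for Spock1, 0.14 for Spock2 and 0.92 for Spock3, and each of them turned sign under at least 1 alternative. For MGE-GFP+ minus GFP- ES-derived cells Spock1 differed by -1.06, Spock2 by -0.96 and Spock3 by 1.76, the last from probes within the control range. In all, 4 of the 8 family members were at least 2-fold lower in GFP+ ES-derived than in GFP- ES-derived cells, where 6.4% of all genes were lower. In MGE-GFP+ relative to GFP- ES-derived cells 5 were lower and 1 higher, beside 17.2% and 9.9% of all genes. Sparcl1 is among these 5 with the MGE-GFP+ value on which it was selected, and the family was chosen through Sparcl1. The family counts are therefore descriptions only.

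Among the SLC1 transporters, Slc1a2 and Slc1a3 (GLAST), the pair that clears glutamate in astrocytes, differed in opposite directions. Slc1a3, which marks radial glia before astrocytes exist, read 152 in GFP+ ES-derived, 2338 in GFP- ES-derived and 30.4 in MGE-GFP+ cells. It was 13.6-fold lower in GFP+ ES-derived (-3.76) and 52.5-fold lower in MGE-GFP+ (-5.72) than in GFP- ES-derived cells, and 8 of 18655 and 41 of 17025 genes had lower differences. In both GFP+ populations Slc1a3 was within the control range, so these sizes depend on how dim signal is treated. Its deposited log2 values were 7.38, 11.24 and 6.95 in GFP+ ES-derived, GFP- ES-derived and MGE-GFP+ cells. Of the 5 others, Slc1a1, the neuronal glutamate transporter, differed by -0.68 and -0.69 in the same comparisons. The neutral amino acid transporters differed by 0.34 and 0.78 (Slc1a4) and by 0.21 and -0.41 (Slc1a5), and the first value of each turned negative under the 50th percentile. Slc1a6 differed by 0.47 and -0.56. Slc1a7 was well above background in GFP+ ES-derived cells only.

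Genes of the same cell type that are not among the 9 were examined through a list of 35 other astrocyte-enriched genes. Between GFP+ ES-derived and GFP- ES-derived cells, 15 of the 33 with a value were at least 2-fold lower and 1 higher (Chrdl1, a BMP antagonist, which rests on a bound). Of all genes, 6.4% were lower and 24% higher there. The median of the list was -0.93, beside 0.27 for all genes. Among the largest differences were those of Mt2, a metallothionein (-3.27), Aldoc, a glycolytic aldolase (-2.75), and Mlc1, a membrane protein of astrocyte endfeet (-2.71). In MGE-GFP+ relative to GFP- ES-derived cells, 28 of 34 were at least 2-fold lower and 1 higher (Dio2, which makes active thyroid hormone, at 1.22), with a median of -1.56. Of all genes, 17.2% were lower and 9.9% higher in that comparison. Sdc4, a heparan sulfate proteoglycan, was at least 54.6-fold lower there, Mlc1 34.8-fold and Aldoc 24.2-fold. The Sdc4 bound rests on the scaling and floor used here. In MGE-GFP+ cells Sdc4, Mlc1 and Aldoc were within the control range, so these sizes depend on how dim signal is treated. Deposited log2 values in GFP- ES-derived and MGE-GFP+ cells were 9.73 and 6.20 (Sdc4), 9.62 and 6.37 (Mlc1), and 12.24 and 8.20 (Aldoc). Between MGE-GFP+ and GFP+ ES-derived cells 16 of 32 were lower and 0 higher, where 32.2% of all genes were lower and 5.48% higher. That count of 16 changed with the processing.

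Glul (glutamine synthetase), which converts the glutamate that the transporters take up, differed by -0.59 between the ES-derived populations and by -0.04 between MGE-GFP+ and GFP- ES-derived cells (0.27 under the 50th percentile). In all, 14, 23 and 12 of the 35 genes were above the control range in GFP+ ES-derived, GFP- ES-derived and MGE-GFP+ cells, and Slc6a11, a GABA transporter of astrocytes, was not well above background on any array.

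Radial glia and glial progenitor genes were also lower in GFP+ ES-derived cells. Of 19 genes, 15 were at least 2-fold lower in GFP+ ES-derived than in GFP- ES-derived cells and 2 higher, with a median of -2.05, where 6.4% of all genes were lower and 24% higher. Vim, the intermediate filament of radial glia, read 1473, 17267 and 1181 in GFP+ ES-derived, GFP- ES-derived and MGE-GFP+ cells (-3.38 between the ES-derived populations). Sox9, a transcription factor required for the switch to gliogenesis, differed by -3.06 and Zfp36l1, an RNA-binding protein, by -3.08. Of the same genes, 14 were lower and 1 higher in MGE-GFP+ than in GFP- ES-derived cells, beside 17.2% and 9.9% of all genes. The lower ones included Hes1, a Notch target (-3.78), and Zfp36l1 (-4.22), and the higher one was Nr2e1 (Tlx), a progenitor nuclear receptor of the forebrain (4.52), which was also 2.76 higher in GFP+ ES-derived cells.

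In MGE-GFP+ relative to GFP+ ES-derived cells, 5 of the 19 radial glia genes were at least 2-fold lower and 5 higher, where 32.2% of all genes were lower and 5.48% higher. Their median was 0.06, beside -0.36 for all genes. Over the alternatives these counts ranged from 1 to 5 and from 4 to 9 and the median from 0.06 to 0.80.

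**Figure D5:**
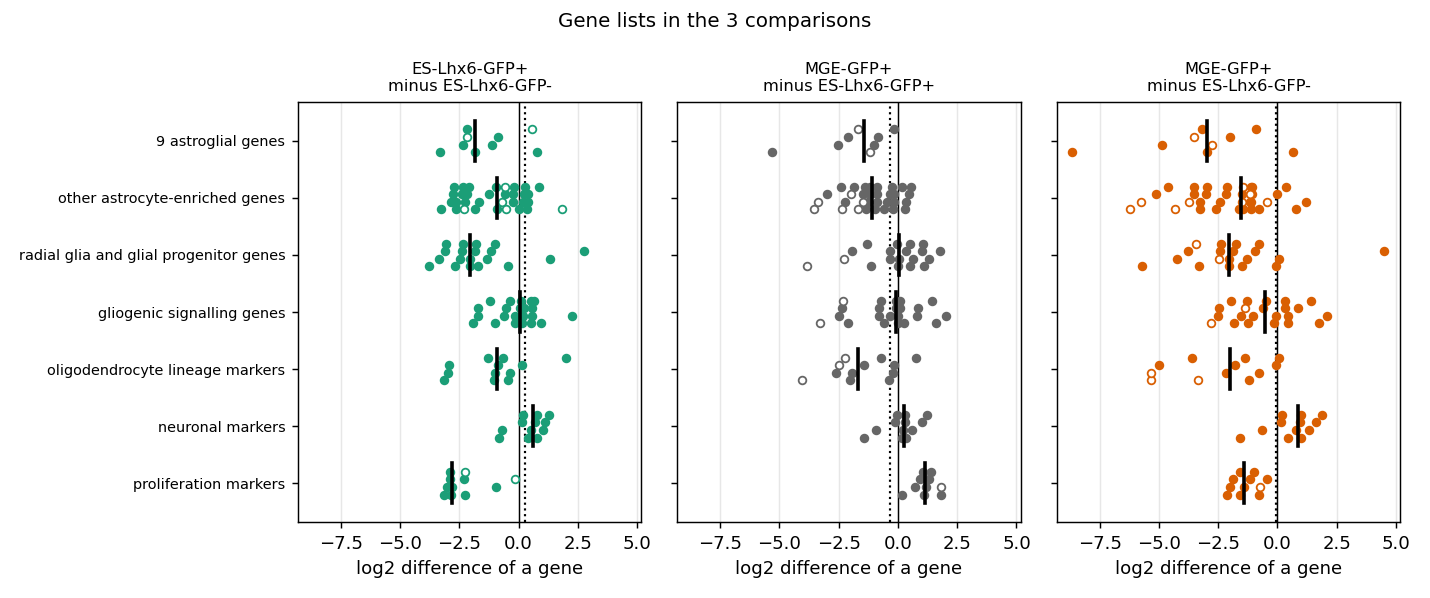
Log2 difference of each gene of 7 lists in the 3 comparisons. Each point is a gene, open points rest on a bound, the thick bar is the median of the list and the dotted line the median of all genes. Astroglial, other astrocyte-enriched, radial glial, oligodendrocyte lineage and proliferation genes lie mostly left of the dotted line in the outer panels. In the middle panel the proliferation genes lie to its right with a median of 1.12.

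Signals that direct the formation of astrocytes include cytokines of the LIF and CNTF family acting through JAK and STAT3, BMPs acting through SMAD and Id proteins, and Notch. The list of 22 genes also holds a feedback inhibitor, Socs3, and the Polycomb gene Ezh2, so its counts give no direction of signaling. In GFP+ relative to GFP- ES-derived cells, 5 were at least 2-fold lower and 1 higher, beside 6.4% and 24% of all genes. The median was 0.07 beside 0.27 for all genes, and the number lower ranged from 2 to 7 over the alternatives. Lower were Id1 (-1.92) and Id3 (-1.72), inhibitors of bHLH factors and targets of BMP, Lifr, the LIF receptor (-1.73), Stat3 (-1.18) and Socs3, a feedback inhibitor of that pathway (-1.01). The higher gene was Ctf1, which encodes the cytokine cardiotrophin-1 (2.25), at intensities of 161, 38.8 and 24.8 that lay within the control range on each array. Against GFP- ES-derived cells, MGE-GFP+ cells had 10 lower and 3 higher, beside 17.2% and 9.9% of all genes. The 10 became 7 under the 50th percentile and after quantile normalization, and 6 with median intensity. They became 5 in the deposited log2 values and with normexp, and 4 of 16 with the control floor. Lif (at least 6.94-fold), Id3 (5.67-fold) and Lifr (5.51-fold) were the lowest, and Ezh2, the Polycomb methyltransferase, was 4.26-fold higher. Lif read 177, 140 and 13.8 in GFP+ ES-derived, GFP- ES-derived and MGE-GFP+ cells, within the control range on each array. The Lifr probes differed by -2.97, -1.19 and -3.22.

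Markers of other cells that the sorts could hold also differed between the arrays. For the counts that follow, 6.4% of all genes were at least 2-fold lower and 24% higher in GFP+ relative to GFP- ES-derived cells. In MGE-GFP+ cells 17.2% were lower and 9.9% higher than in GFP- ES-derived cells. Relative to GFP+ ES-derived cells these shares in MGE-GFP+ cells were 32.2% and 5.48%. Neuronal markers, all 12 above the control range on each array, had a median of 0.61 in GFP+ ES-derived relative to GFP- ES-derived cells, with 3 of 12 at least 2-fold higher (Dcx, Elavl3 and Mapt) and 0 lower, where 24% of all genes were higher. Under the 50th percentile 0 were higher and 2 lower. Their summed intensity, divided by the array's 75th percentile as are the sums that follow, was 406, 327 and 485 on the GFP+ ES-derived, GFP- ES-derived and MGE-GFP+ arrays. Proliferation markers were lower in GFP+ ES-derived cells for 9 of 11, with a median of -2.80 and sums of 2.84, 17.99 and 6.47, and for 6 to 11 over the alternatives. Their differences ran the same way as those of the astroglial genes in both comparisons with GFP- ES-derived cells, where 7 of 11 were lower in MGE-GFP+ cells (4 to 8 over the alternatives), and the opposite way between MGE-GFP+ and GFP+ ES-derived cells, where 7 of 10 were higher (3 to 9 over the alternatives). Oligodendrocyte lineage markers were at least 2-fold lower for 5 of 12 in GFP+ ES-derived cells (Olig1 -3.13, Sox10 -2.96 and Olig2 -2.93 among them) and for 9 of 12 in MGE-GFP+ relative to GFP- ES-derived cells, with sums of 7.28, 14.6 and 4.91. Over the alternatives these counts ranged from 2 to 8 and from 5 to 9. Mog, the marker of mature oligodendrocytes in that list, was instead 2.01 higher in GFP+ ES-derived cells. The part of these cells in the astroglial differences was not tested.

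Sparcl1 is also transcribed in endothelial and mural cells, and Clu and Aqp4 in ependyma, so their markers are given beside them. Of 12 endothelial markers, 11, 10 and 7 were well above background in GFP+ ES-derived, GFP- ES-derived and MGE-GFP+ cells, and 3, 3 and 1 exceeded the control range. Cdh5, which defines endothelium, was not well above background on any array, Tie1 only in GFP+ ES-derived cells, and the scaled sums were 2.90, 4.02 and 1.68. Between the ES-derived populations 1 of the 11 with a value was at least 2-fold lower in GFP+ cells (Egfl7, -1.98) and 3 higher (1 to 3 and 1 to 5 over the alternatives). As 24% of all genes were higher there, nothing is read from the higher count. The median was 0.61, beside 0.27 for all genes. Of 11 pericyte and mesenchymal markers, 3, 6 and 1 exceeded the control range, with scaled sums of 5.32, 6.72 and 1.74. Dcn (-2.99) and Pdgfrb (-2.48) were lower in GFP+ ES-derived than in GFP- ES-derived cells and 4 were higher (0 to 3 and 0 to 4 over the alternatives). The shares of all genes there were 6.4% lower and 24% higher. In MGE-GFP+ relative to GFP- ES-derived cells 5 of 10 were lower, led by Col3a1 (-4.63), where 17.2% of all genes were lower. Of 9 choroid plexus and ependymal markers, 2 of 8 were lower in GFP+ ES-derived cells (Enpp2, -3.30, and Otx2, -1.11) and 7 of 8 in MGE-GFP+ relative to GFP- ES-derived cells. Over the alternatives these counts ranged from 1 to 4 and from 4 to 7. The scaled sums were 3.74, 8.41 and 1.66, Kl was not well above background on any array, and Ttr, the defining secreted protein of choroid plexus, read 747, 778 and 2.65. Their part in the Sparcl1, Aqp4 and Clu differences was not tested.

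Apoe is also made by microglia, so their markers are given beside it. Of 11 microglia and macrophage markers on the array, 2, 2 and 3 exceeded the control range. Cx3cr1 and C1qc were not well above background on either ES-derived array. The scaled sums were 89.1, 75.7 and 102. They rest almost wholly on the few genes above the control range, so they do not gauge microglia and are not compared with the sums of other lists. In GFP+ ES-derived relative to GFP- ES-derived cells 4 of the 9 with a value were at least 2-fold higher and 0 lower, where 24% of all genes were higher. In MGE-GFP+ relative to GFP- ES-derived cells 6 of 11 were higher and 0 lower, where 9.9% of all genes were higher. Tyrobp, a signaling adaptor, was at least 10.4-fold and at least 6.21-fold higher. With the control floor, which left 2 and 3 genes with a value, 0 were higher in either comparison, and over the alternatives the numbers higher ranged from 0 to 5 and from 0 to 6. Their part in the Apoe differences was not tested. Of 8 pluripotency markers, 3 were at least 2-fold lower in GFP+ ES-derived than in GFP- ES-derived cells and 1 higher, and 7 were lower in MGE-GFP+ than in GFP- ES-derived cells (1 to 4 and 3 to 7 lower over the alternatives). Dppa5a led both, at -4.50 and -6.37.

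The genes whose pattern was nearest to that of Sparcl1 were sought among 16654 genes well above background in GFP- ES-derived cells, by Euclidean distance over the 3 arrays between normalized log2 levels centered on each gene's mean. They were Irx3 (distance 0.47), Slc6a4, the serotonin transporter (0.80), Gata2 (0.97), Shox2 (1.01) and Vtn, the matrix protein vitronectin (1.06). All 5 were at the floor in MGE-GFP+ cells. Irx3, a homeobox transcription factor, read 417 in GFP+ ES-derived, 4794 in GFP- ES-derived and 2.89 in MGE-GFP+ cells. Nearest to Aldh1l1 were Iqgap2 (0.017), Agtrap (0.16), Smoc2 (0.18), Irx5 (0.18) and Ifitm3 (0.18), of which Smoc2 is a relative of Sparcl1. Iqgap2, a scaffold protein, read 119, 670 and 15.75 in the 3 populations. A pattern over 3 arrays holds few degrees of freedom, so near neighbors are a description.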

How the data were processed

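Sorted cells of 3 populations were each measured on 1 array, 62976 spots per array and 55681 mouse probes, all on 1 slide. Per the file headers, the authors extracted the images with Agilent Feature Extraction 10.7.3.1 and deposited spot intensity after background subtraction, with no scaling between arrays. The methods describe whole transcriptome amplification and the labels a low-input linear amplification with an array of a smaller format. The authors also deposited normalized log2 values, whose scale is not stated; they lay within 0.315 of log2 median spot intensity, quantile normalized without background subtraction.

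Here, 135, 137 and 98 flagged spots were left out on the GFP+ ES-derived, GFP- ES-derived and MGE-GFP+ arrays, repeat spots were averaged, and log2 intensity minus the array's 75th percentile was taken. A probe was well above background when at least 0.5 of its spots had that call. A dimmer probe was raised to the lowest such level on its array, so that the fold is a bound, and probes dim on both arrays got no fold. A gene is the mean of its probes, and 26582 probes were named through a RefSeq table. Since each population has 1 array, no test was run; a gene was counted at 2-fold, beside the share of all genes. Genes named outside the 9, Lhx6, Gad1 and Gad2, the SPARC and SLC1 families and the nearest patterns are, per list, up to 4 with the largest differences from GFP- ES-derived cells in each GFP+ population. Chrdl1, Dio2, Glul, Slc6a11, Stat3, Socs3 and genes named as not well above background were named after their values were seen. One gene that this rule names is not reported here. Genes and lists were chosen with earlier results of these data known. The calculation was tested on simulated data. Scripts used Python 3.11.15, pandas 2.3.3, R 4.3.3 and limma 3.58.1 (normexp).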

Additional observations from a re-analysis of the deposited data

How the results depend on the processing

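In all, 9 alternatives were run: the 50th percentile, quantile normalization, median intensity without background subtraction, the deposited log2 values, no filter on dim probes, a floor at the 95th percentile of the control probes, the brightest probe per gene, outlier spots kept, and, added after seeing the data, normexp on median intensity. Normexp on mean intensity and naming by a gene name column were planned and not run, since the scanner files used here hold neither column. No paired analysis was possible because each population has 1 array.

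The number of the 9 genes at least 2-fold lower ranged from 4 to 7 for GFP+ ES-derived against GFP- ES-derived cells and from 6 to 7 for MGE-GFP+ against GFP- ES-derived cells. For MGE-GFP+ against GFP+ ES-derived cells it was 6 and became 3 under the 50th percentile, median intensity, the deposited log2 values and normexp. The same count of other astrocyte-enriched genes was 16 and became 8 under the 50th percentile, 8 after quantile normalization, 9 with median intensity, 7 in the deposited log2 values, 7 with normexp and 4 of 14 with the control floor. Their counts against GFP- ES-derived cells ranged from 10 to 22 in GFP+ ES-derived and from 20 to 30 in MGE-GFP+ cells. Gfap reversed between the ES-derived populations (quantile -0.61, deposited -0.19, brightest probe -0.15) and between MGE-GFP+ and GFP+ ES-derived cells (quantile 0.17, deposited 0.26). The cause was not tested. Of all single-gene differences of the 9, 111 stayed within the repeat-spot spread, 111 moved beyond it with the same sign or without a call and 5 reversed. Dim signal limits the values on the MGE-GFP+ array, where 5 of the 9 genes were within the control range.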
